A study of Homo sapiens with 36 samples.

Results

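The 866 features described here are enhancer RNA regions that gave reads in cells with DIS3 left intact. The members were chosen by their counts in those cells: they are the rows of the deposited polyA count tables whose id begins with HCT116.eRNA and whose raw counts, summed over the 6 libraries of the control line, reach 60. The tables hold 7439 such regions among 60095 features, so 6573 regions fell below the threshold. The ids carry the word intergenic in 608 of the members and antisense in 258, out of 5235 and 2204 regions in all. The sources used here do not define these words, and the files give the regions no coordinates, length or sequence. Region ids are given below without their shared prefix HCT116.eRNA.

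The cells were HCT116, an established human colon carcinoma line, and all of them made TIR1, the plant receptor through which auxin directs tagged proteins to the proteasome. The control line carried TIR1 alone. In the second line, a single CRISPR clone called DIS3-AID below, the auxin-inducible degron (AID) was added to DIS3. Each line was left untreated or given 500 uM auxin for 1 h, which made 4 groups of 3 libraries: control, control with auxin, DIS3-AID, and DIS3-AID with auxin. RNA came from the cytoplasm and was polyA-enriched with a stranded kit. The triplicates are called technical in the series' text, so every p-value below measures the spread between these libraries of 1 clone and 1 control line.

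Enhancer RNAs are made when RNA polymerase II transcribes active enhancers. Most are short, unspliced and quickly degraded in the nucleus by the RNA exosome, to which cofactor complexes hand over RNAs that ended early or lack stable 3′ ends. DIS3 is a catalytic ribonuclease of that exosome. A region that is catalogued as an enhancer can also lie within or beside a stable long non-coding RNA gene, whose polyadenylated transcript is exported and long-lived.

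The libraries held 25.9 to 33.1 M counts, and 23668 to 26562 features had at least 1 count. Levels are in CPM, counts scaled by library size and the TMM factor (trimmed mean of M-values). Markers of colon epithelium were present (8 of the 11 found in the table reached 1 CPM, and their sum was 6533 to 8252 CPM). The 6 fibroblast markers summed to 11.8 to 16.5 CPM, with COL1A2, DCN and PDGFRA at 0, and the 3 blood markers found stayed at or under 0.0387 CPM. DIS3 mRNA, in counts, was 263, 186 and 190 in control cells, 198, 209 and 161 in control cells with auxin, 131, 127 and 103 in DIS3-AID cells and 146, 139 and 125 in DIS3-AID cells with auxin. The degron acts on the protein, which was not measured, so these counts do not show how far DIS3 was removed.

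Many members stood next to a row that carried almost the same counts. For 109 of the 866, a row within 5 places in the table differed from the member by less than 25 percent of what independent counting noise over the 12 libraries would give. The matching row was an Ensembl gene for 78 members and an assembled locus, a transcript model that carries only a locus number, for 31. In 97 of the 109 it was the directly adjacent row. The summed difference had a median of 0.619 percent of the counts, and 15 members were identical to their neighbour in all 12 libraries. No member had such a match farther away in the table, although at a looser limit of 50 percent of the counting noise, where 150 members had a match nearby, 73 members also had one elsewhere. The Ensembl rows run in genome order for 97.0 percent of neighbouring pairs on a chromosome, but the position of a region is not taken from its row. Whether the paired rows share reads was not tested.

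Among the 78 matched genes were 27 annotated as lincRNA, 17 as antisense and 9 as processed transcripts, and pseudogenes of several kinds made up 20. The 3′ ends of 6 of them are shown because a polyA-enriched library is selected at that end, and because these genes pair with members that the results turn on. Each line is the last 60 bases of the last exon of the longest GENCODE 29 transcript of the gene (GRCh38, written on the transcript's strand), with the polyadenylation signal AATAAA in capitals where it occurs.
ENSG00000273338: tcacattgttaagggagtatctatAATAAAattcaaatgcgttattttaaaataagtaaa
LINC01144: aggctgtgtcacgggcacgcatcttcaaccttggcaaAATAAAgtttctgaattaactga
NORAD: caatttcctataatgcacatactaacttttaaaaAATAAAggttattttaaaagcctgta
SNHG16: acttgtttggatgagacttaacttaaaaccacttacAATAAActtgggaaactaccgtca
RARA-AS1: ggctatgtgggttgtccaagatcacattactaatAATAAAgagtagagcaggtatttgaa
SNHG29: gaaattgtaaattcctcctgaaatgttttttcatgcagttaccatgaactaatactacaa
These stretches lie at chr1:78004346-78004405 on the minus strand (ENSG00000273338), chr1:45305560-45305619 on the plus strand (LINC01144), chr20:36045622-36045681 on the minus strand (NORAD), chr17:76565289-76565348 on the plus strand (SNHG16), chr17:40340867-40340926 on the minus strand (RARA-AS1) and chr17:16441936-16441995 on the plus strand (SNHG29). The signal was present in 5 of the 6 and absent from this window of SNHG29. Matched genes named further below, PCGF3-AS1, MATN1-AS1, KCNQ1OT1, MIR17HG and MIR34AHG, all lacked the signal in this window. Searched on the transcript strand, it occurred in 36 of the 78 matched genes (46.2 percent) and in 5337 of the 14361 long non-coding genes of the table (37.2 percent). These sets are unlike. The 78 include 20 pseudogenes and pair with members that reached 60 control counts, while the 14361 are long non-coding genes only. A match of these letters is a description and does not show that the site is used.

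Levels in the control line chose the members and are given as a description. The summed control count ran from 60 to 553860 with a median of 234.5, and the mean level from 0.337 to 3131 CPM with a median of 1.32 CPM. At least 1 CPM was reached by 501 members, 10 CPM by 99, 100 CPM by 8 and 1000 CPM by 3. The highest member held 27.6 percent of all member counts in the control line, the 3 highest held 52.5 percent and the 10 highest 67.6 percent. Since region lengths are not given, these levels are reads per region and not per length, so they set no order of transcript abundance. Just inside the threshold 5 regions had 60 counts, and just outside it 10 had 59; the 3 on each side that come first by id are given. Inside were antisense.3270, antisense.3302 and intergenic.3220, which had 45, 21 and 19 counts over the DIS3-AID libraries without auxin and 60, 94 and 35 with it. Outside were antisense.1389, antisense.2541 and antisense.4081, which had 34, 14 and 25 without auxin and 88, 56 and 31 with it.

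The member with most counts, antisense.2366, had 99815, 87265 and 92012 counts in control cells, 101150, 93949 and 79669 in control cells with auxin, 85676, 83225 and 72659 in DIS3-AID cells and 87019, 79511 and 83271 in DIS3-AID cells with auxin. In DIS3-AID cells the treated and untreated libraries overlapped, and the log2 change after auxin was 0.04 ± 0.04 (SE; adjusted p = 0.581, edgeR quasi-likelihood test). The next row of the table is DEPDC1, a protein-coding gene, with 2118 to 3128 counts per library. Second was intergenic.1720, at 1755 ± 93.8 CPM in control cells and 1709 ± 50.7 CPM in DIS3-AID cells with auxin (SD, n = 3), whose counts differed from the assembled locus XLOC_011776 by 0.0022 percent. Its log2 change was 0.03 ± 0.04 (adjusted p = 0.718, edgeR).

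Among the 10 highest, 2 members matched snoRNA host genes, which make a spliced non-coding RNA and release small nucleolar RNAs from their introns. Counts of antisense.3035 were those of SNHG29 to within 0.0108 percent: 31528, 30708 and 35522 in control cells, and 27641, 25521 and 25777 in DIS3-AID cells with auxin. Antisense.3158 followed SNHG16 to within 0.186 percent, with 593 ± 58.1 CPM in control cells and 567 ± 21.9 CPM in DIS3-AID cells with auxin. Neither passed the test for auxin in DIS3-AID cells (log2 change -0.05 and -0.03, adjusted p = 0.556 and 0.765, edgeR), and both signs turned positive under scaling by library size alone. Antisense.2156 lay within 1.66 percent of SNHG7, which at these counts is 101 percent of the counting noise and so not a match by the limit used. It was at 163 ± 11.4 CPM without and 186 ± 10.3 CPM with auxin in DIS3-AID cells, a rise of 0.18 ± 0.06 (adjusted p = 0.0358, edgeR), with SNHG7 itself at 0.18 (adjusted p = 0.0366). The rise lost the call, with adjusted p from 0.0645 to 0.197, when control replicate 2, DIS3-AID replicate 2 or 3, or DIS3-AID auxin replicate 2 or 3 was left out.

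NORAD, a long non-coding RNA of the cytoplasm that binds Pumilio proteins, was matched by intergenic.4612 to within 0.00625 percent. Its gene lies at chr20:36045622-36050960 on the minus strand. The region had 8968, 7926 and 8128 counts in control cells, 7922, 7547 and 7132 in control cells with auxin, 6923, 7182 and 6490 in DIS3-AID cells and 9689, 8783 and 9375 in DIS3-AID cells with auxin. In DIS3-AID cells the treated libraries all lay above the untreated ones, and the region rose by 0.43 ± 0.05 on the log2 scale (adjusted p = 8.7e-08, edgeR). Intergenic.3442, which had no matching row, rose by 0.47 ± 0.06 (adjusted p = 1.97e-07, edgeR), from 6154, 5909 and 5296 counts to 8297, 7810 and 8035. The row after it, LINC03061, rose by 0.37 (adjusted p = 4.89e-06). The remaining members of the 10 highest were antisense.149, with a rise of 0.18 ± 0.06 (adjusted p = 0.0406, edgeR), and intergenic.4096, at -0.06 ± 0.05 (adjusted p = 0.555), a sign that turned positive under scaling by library size alone. Leaving out control replicate 2, DIS3-AID replicate 1 or 2, or DIS3-AID auxin replicate 2 or 3 ended the call of antisense.149 (adjusted p from 0.064 to 0.207).

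One of the 10 highest spread far more than the rest. Intergenic.4906 had 12634, 8124 and 9189 counts in control cells, 10120, 6804 and 14038 in control cells with auxin, 22240, 32149 and 40235 in DIS3-AID cells and 24173, 31696 and 19778 in DIS3-AID cells with auxin. Every library of the DIS3-AID clone lay above every library of the control line, and the replicates within a group varied by 20.7 to 42.3 percent (coefficient of variation) where the other 9 varied by 0.645 to 9.79 percent. Auxin gave no call in DIS3-AID cells (-0.34 ± 0.37, adjusted p = 0.639, edgeR). The row 3 places after it is MTND2P28, a nuclear pseudogene copy of a mitochondrial gene, with 2982, 1724 and 1928 counts in control cells and 6406, 9571 and 11174 in DIS3-AID cells. Whether reads of mitochondrial RNA reached both rows was not tested.

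**Figure D1:**
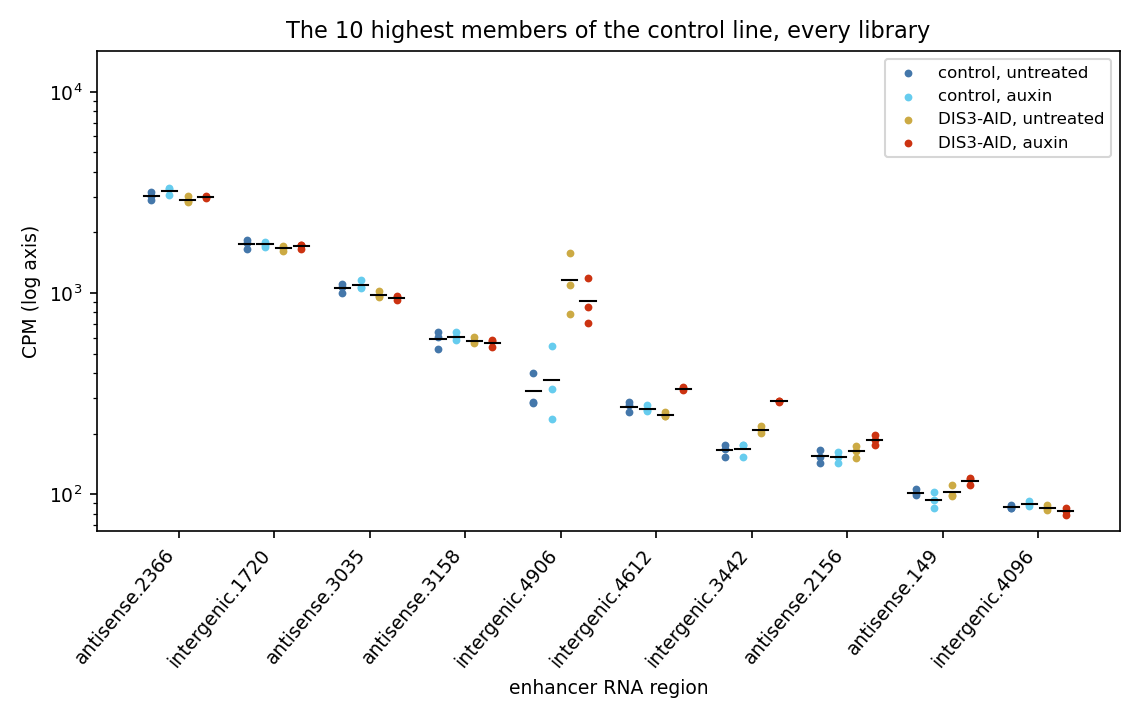
CPM (log axis) of the 10 members with the highest mean level over the control-line libraries, with 1 point per library, a bar at each mean of 3 and a colour per group. Intergenic.4906 stands apart with wide replicates and higher values in both DIS3-AID groups, and intergenic.4612 and intergenic.3442 are highest in DIS3-AID cells with auxin.

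To ask which members accumulate when DIS3 is targeted for degradation, DIS3-AID cells were compared with and without auxin. The rule did not use these libraries. Of the 866 members, all of which passed the low-count filter, 258 rose and 3 fell (adjusted p < 0.05, edgeR), and 605 did not pass. Over all 16651 features tested the rises were 2157 (13.0 percent) and the falls 704 (4.23 percent), or 2342 and 335 when scaled by library size alone. The median log2 change was 0.28 over the members (quartiles 0.02 and 0.74) and -0.02 over all features. A rise of at least 2-fold was called for 148 members (17.1 percent, against 9.35 percent of all features), of at least 4-fold for 33 (3.81 against 5.63 percent) and of at least 8-fold for 5 (0.577 against 3.20 percent), and no fall reached 2-fold. The share over all features is not held to 60 control counts. It includes features that passed the low-count filter only through the treated group. Among the 13648 Ensembl genes tested with at least 60 control counts, 698 rose (5.11 percent), 264 of them by at least 2-fold, and 697 fell. For 4-fold and 8-fold rises no such comparison was made. All 3 treated libraries lay above all 3 untreated ones, in CPM, for 358 members (41.3 percent, against 18.2 percent of all features) and below them for 25 (2.89 percent, against 12.9 percent). Members with antisense in the id rose in 85 of 258 cases (median 0.33) and those with intergenic in 173 of 608 (median 0.25), and the 3 falls were intergenic. In bulk RNA, more of a transcript per cell and more cells that carry it cannot be told apart.

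The highest-ranked rise was intergenic.3497. It had 8, 9 and 12 counts in control cells, 11, 20 and 11 in control cells with auxin, 13, 8 and 10 in DIS3-AID cells and 131, 153 and 148 in DIS3-AID cells with auxin, where all 3 libraries lay above the other 9. The change was 3.78 ± 0.23 (adjusted p = 6.61e-13, edgeR). In the table this region directly precedes intergenic.3442, whose rise was 0.47 from a much higher count, and follows the assembled locus XLOC_003870, which went from 0, 0 and 1 counts to 21, 22 and 21. That locus passed the low-count filter only through the treated group, so its rise supports nothing.

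The second rise, antisense.111, followed the antisense gene ENSG00000273338 (chr1:78004346-78004554, minus strand), whose end is printed above, to within 0.525 percent. Counts were 16, 11 and 12 in control cells, 10, 9 and 9 in control cells with auxin, 10, 5 and 9 in DIS3-AID cells and 92, 97 and 101 in DIS3-AID cells with auxin. The rise was 3.57 ± 0.26 (adjusted p = 1.56e-11, edgeR), with no overlap between the treated DIS3-AID libraries and any other. The row before it is GIPC2, a protein-coding gene, at -0.05 (adjusted p = 0.721).

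Next was intergenic.3240, identical in all 12 libraries to the assembled locus XLOC_003327. It went from 79, 101 and 72 counts in DIS3-AID cells to 941, 996 and 943 with auxin, while control cells had 56, 48 and 48 without and 59, 45 and 34 with auxin. This was a rise of 3.51 ± 0.11 (adjusted p = 3.14e-19, edgeR) and the highest treated level of the 12 largest rises, 34.7 ± 2.23 CPM (SD, n = 3). Untreated DIS3-AID libraries, at 3.02 ± 0.368 CPM, already lay above the control libraries at 1.65 ± 0.14 CPM.

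Of the other 9 of the 12 largest rises, intergenic.4770 had the most counts, from 31, 40 and 51 to 356, 340 and 393 (3.15 ± 0.16, adjusted p = 8.18e-15, edgeR). The assembled locus in the next row, XLOC_009208, rose by 2.34. Intergenic.3693 rose by 3.07, from 12, 13 and 18 to 121, 103 and 142 counts. Intergenic.2661 rose by 2.90 with wider replicates, from 22, 20 and 34 to 158, 158 and 256.

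Antisense.1873 rose by 2.84, from 9, 18 and 14 to 90, 95 and 112, and the next row, antisense.1874, a region below the threshold, went from 4, 2 and 1 to 77, 76 and 74. Antisense.702 rose by 2.68, from 43, 29 and 35 to 195, 234 and 261, beside the assembled locus XLOC_005352, which rose by 3.19. These neighbours were picked as examples. Antisense.1874 had 0 to 3 counts per control-line library and passed the low-count filter only through the treated group, so its rise supports nothing. Some other neighbours stayed near 0: the row before intergenic.2661, intergenic.2660, had 0 to 3 counts per library. GPR132, the row before intergenic.3693, had 0 to 2. Others rose. The row after intergenic.2661, intergenic.2560, went from 5, 4 and 1 to 11, 12 and 25. XLOC_004254, 3 rows before intergenic.3693, went from 9, 4 and 7 to 57, 61 and 70. Both passed the low-count filter only through the treated group, so their rises support nothing. XLOC_013739, the row after intergenic.2471, went from 116, 147 and 118 to 451, 383 and 381.

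Intergenic.2775 rose by 2.67, intergenic.922 by 2.65 and intergenic.2471 by 2.56, with 92 to 148 counts per treated library and 12 to 24 per untreated one. The 11th of the 12, intergenic.4912, followed LINC01144 to within 0.873 percent (chr1:45303910-45305619, plus strand). It had 5, 11 and 8 counts in DIS3-AID cells and 40, 47 and 57 with auxin (2.56 ± 0.35, adjusted p = 1.78e-06, edgeR). In control cells its counts were 7, 10 and 3 without and 20, 11 and 10 with auxin, so that the lowest treated count equalled the highest untreated one. Among the 12, 9 had no matching row, 2 had an Ensembl gene and 1 an assembled locus.

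**Figure D2:**
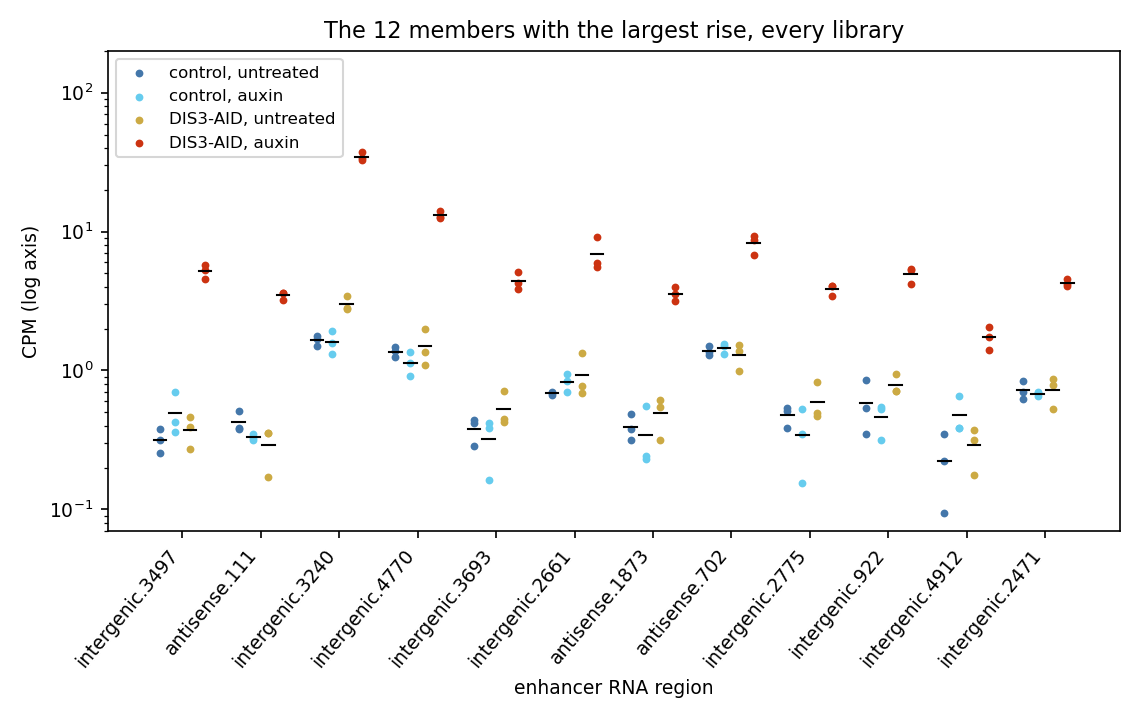
CPM (log axis) of the 12 members with the largest called rise after auxin in DIS3-AID cells, with 1 point per library, a bar at each mean of 3 and a colour per group. In each region the 3 treated DIS3-AID libraries lie above the other 9, and intergenic.3240 reaches the highest level, 34.7 CPM.

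The 3 falls were small. Intergenic.1768 went from 373, 394 and 399 counts to 279, 298 and 310 (fell by 0.40 on the log2 scale, adjusted p = 0.00301, edgeR), with 14.9 ± 1.04 CPM in control cells. SSR1, a protein-coding gene 2 rows on, fell by 0.32 (adjusted p = 0.0339). Intergenic.623 went from 770, 729 and 711 counts to 640, 613 and 582 (fell by 0.27, adjusted p = 0.00694). Intergenic.3093 went from 78, 59 and 52 to 49, 37 and 37 (fell by 0.62, adjusted p = 0.0273), next to USP2, a deubiquitinase gene, which fell by 0.64 (adjusted p = 0.00595). The groups did not overlap in any of the 3. The call of intergenic.3093 ended without DIS3-AID replicate 1 (adjusted p = 0.173), without DIS3-AID auxin replicate 2 (0.0927) or 3 (0.092), under scaling by library size alone (0.0544) and in DESeq2 (0.067). The count of falls was 6 without control replicate 1, without DIS3-AID replicate 2 or without DIS3-AID auxin replicate 1, and 5 without control replicate 2.

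The median change was smaller at higher levels in the control line. From 60 to 99 summed control counts, 61 of 185 members rose (median 0.62), and from 100 to 199, 53 of 209 (median 0.38). From 200 to 499 counts 76 of 215 rose and 1 fell (median 0.33). From 500 to 1999 counts 46 of 161 rose (median 0.19), and at 2000 or more 22 of 96 rose and 2 fell (median 0.06), none by 2-fold. The share that rose, 22.9 to 35.3 percent, therefore varied less than the size. Replicates of the lowest bin had a median coefficient of variation of 28.2 percent in control cells, against 5.52 percent in the highest, so a given change is harder to call at low counts.

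Ensembl genes of the same summed control counts had smaller shares of rises in each bin. For long non-coding genes the rises were 85 of 466, 102 of 561, 144 of 560, 95 of 462 and 47 of 319 from the lowest bin to the highest, or 14.7 to 25.7 percent. For all Ensembl genes they were 104 of 973, 139 of 1305, 189 of 1606, 165 of 2621 and 101 of 7143, or 1.41 to 11.8 percent. The lengths of the regions are not known, and the difference between these classes was not tested.

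**Figure D3:**
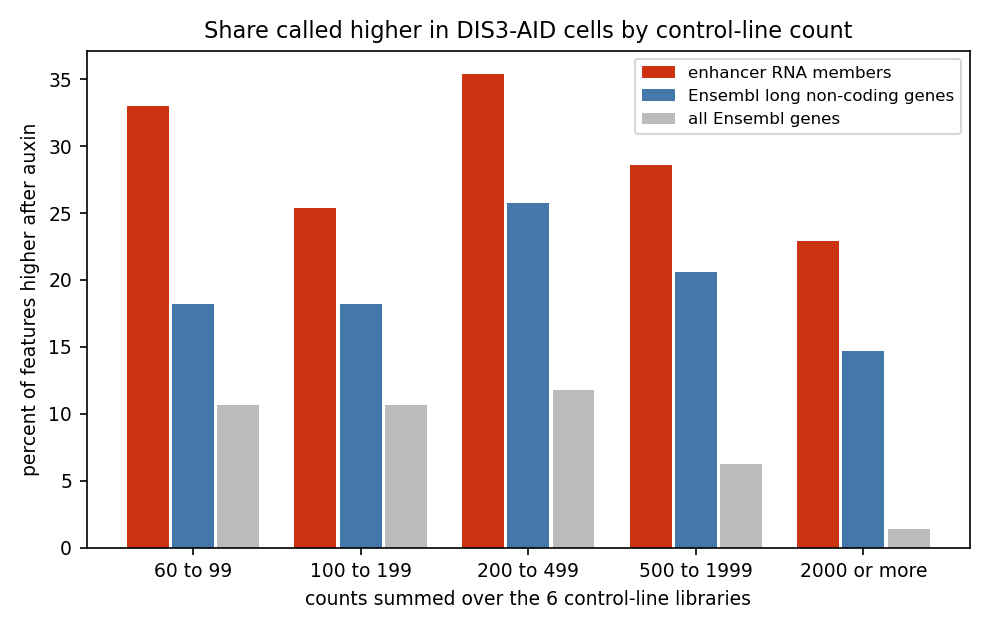
Bars give the percent of features called higher after auxin in DIS3-AID cells, in 5 bins of counts summed over the 6 control-line libraries, for the members, long non-coding Ensembl genes and all Ensembl genes. The members range from 22.9 to 35.3 percent, and the bar of each bin is highest for the members.

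Members were also grouped by the kind of matching row. Of the 78 with an Ensembl gene, 15 rose (19.2 percent, median 0.15), against the 13.0 percent of all features. Among Ensembl genes with at least 60 control counts the share was 5.11 percent. Long non-coding genes, nearer in kind to most of the 78, rose in 14.7 to 25.7 percent, depending on the bin of control counts. The 19.2 percent lies within that range. Of the 31 with a matching assembled locus 17 rose (54.8 percent, median 0.66), and of the 757 with neither 226 rose (29.9 percent, median 0.29) and 3 fell. Matches to Ensembl genes were spread over the levels, with 14 in the bin of 60 to 99 counts and 17 in that of 2000 or more. Whether the assembled loci were built from these same libraries is not given, so the direction of members that match them may not be independent of the treatment. No test of the difference between the 3 kinds was made.

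Named genes among the Ensembl matches gave both kinds of outcome. PCGF3-AS1, an antisense transcript matched by antisense.1537, rose by 1.04 ± 0.10 (adjusted p = 1.91e-09, edgeR), from 8.14 ± 0.298 to 16.7 ± 1.48 CPM, with 9.54 ± 0.76 CPM in control cells. MATN1-AS1, matched by antisense.2333, rose by 1.11 (adjusted p = 0.000173). Values for KCNQ1OT1, the imprinted antisense RNA of the KCNQ1 locus matched by antisense.314, were 0.91 ± 0.3 and 1.25 ± 0.437 CPM (0.47 ± 0.32, adjusted p = 0.391). MIR17HG, host of a microRNA cluster and matched by intergenic.3436, was at 2 ± 0.141 and 2.55 ± 0.515 CPM (0.35 ± 0.18, adjusted p = 0.235). MIR34AHG, host of a p53-induced microRNA and matched by intergenic.263, was at 0.93 ± 0.35 (adjusted p = 0.0687). These 5 were chosen for their names after the values were seen.

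**Figure D4:**
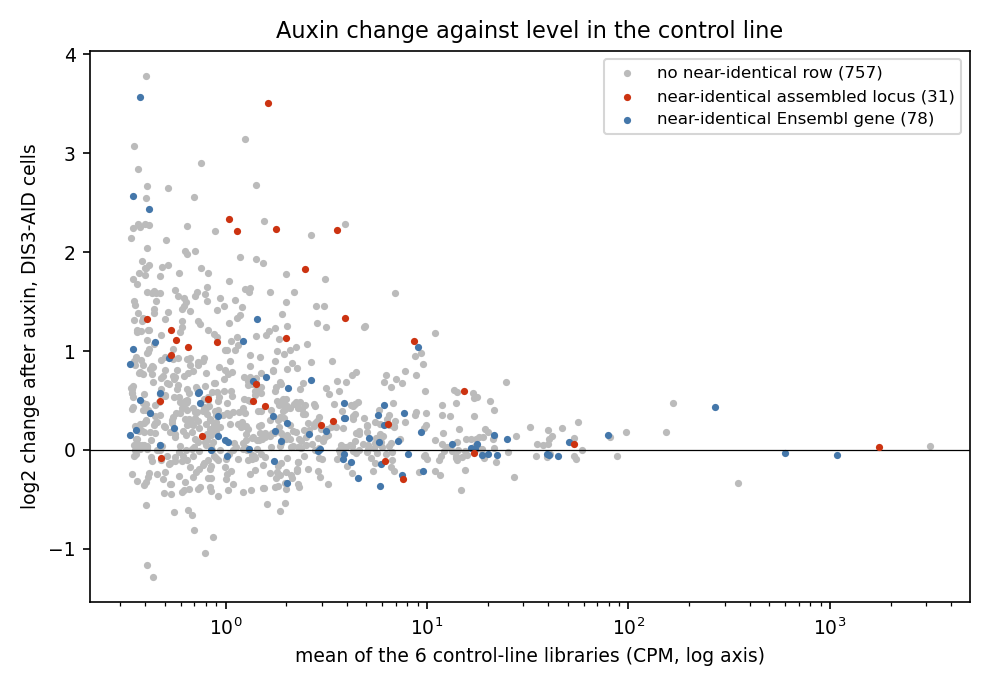
Each point is a member, placed by its mean level over the 6 control-line libraries (CPM, log axis) and its log2 change after auxin in DIS3-AID cells, and coloured by the kind of near-identical row. The spread of changes narrows to the right, and the largest changes lie below 2 CPM in all 3 colours.

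Members that stood in directly adjacent rows did not always share a call. Of 44 such pairs, both rose in 6, 1 rose in 11 and neither rose in 27. The pair of intergenic.3497 and intergenic.3442 is one in which both rose, by 3.78 and 0.47.

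As a share of all counts, the members made up 1.12, 1.10 and 1.08 percent in control cells and 1.15, 1.13 and 1.14 percent in control cells with auxin. In DIS3-AID cells the share was 1.16, 1.18 and 1.20 percent without and 1.32, 1.33 and 1.31 percent with auxin. The 3 treated DIS3-AID libraries lay above all others, 1.12 times the untreated ones, with p = 0.1 in a two-sided exact permutation test, the smallest value that 3 against 3 allows. The difference between untreated lines turned on intergenic.4906: without it the shares were 1.07 ± 0.0129 percent in control and 1.07 ± 0.0198 percent in DIS3-AID cells, and 1.23 ± 0.0137 percent after auxin (SD, n = 3; 1.15 times). Without the 10 highest members the share rose 1.28 times, from 0.373 ± 0.00365 to 0.476 ± 0.00433 percent (exact p = 0.1). The regions outside the rule summed to 0.0218 ± 0.000635 percent and, with auxin, to 0.103 ± 0.00778 percent.

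In control cells auxin gave no call among the members. None rose and none fell (edgeR), where 0.0120 percent of all features rose and 0.0360 percent fell. At an unadjusted p under 0.05 there were 64 members, 44 of them higher (5.08 percent, against 2.73 percent of all features) and 20 lower (2.31 against 2.46 percent), and DESeq2 called 1 higher and 1 lower. In edgeR 1 was higher without DIS3-AID auxin replicate 3, and 1 was lower without control auxin replicate 3 or DIS3-AID replicate 1 or 3. The median change was 0.05, and the estimates ran from -1.16 to 1.20. The rule summed untreated and auxin-treated control libraries, so these values describe the libraries that chose the members.

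**Figure D5:**
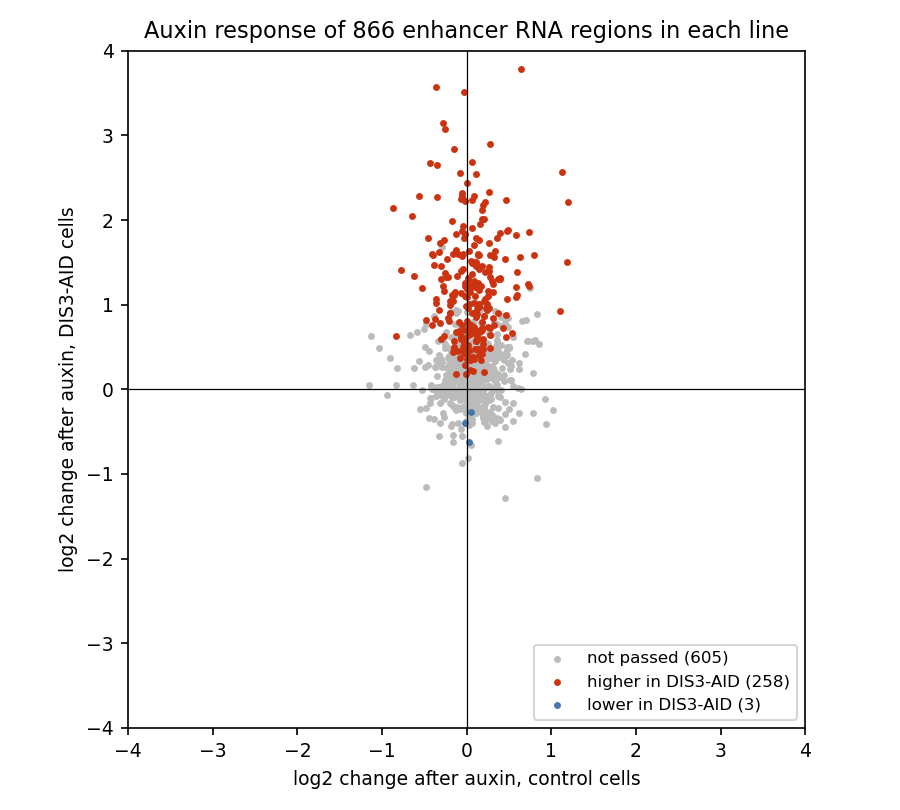
Each point is a member, with its log2 change after auxin in control cells on the horizontal axis and in DIS3-AID cells on the vertical axis, on equal scales. The control changes lie between -1.16 and 1.20, while the 258 called rises reach 3.78 in DIS3-AID cells.

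The difference between the auxin effects of the lines was fitted as an interaction, DIS3-AID minus control. The control effect in it comes from the 6 libraries whose summed counts chose the members, so the interaction is not fully independent of the rule. It was higher for 137 members and lower for 2 (adjusted p < 0.05, edgeR), where 4.76 and 1.09 percent of all features were called, and its median was 0.25. By at least 2-fold it was higher for 104, against 3.74 percent of all features. Of the 258 members that rose in DIS3-AID cells, 134 also passed here. The interaction was 3.93 ± 0.45 for antisense.111 (adjusted p = 1.01e-06, edgeR), 3.54 ± 0.21 for intergenic.3240 (5.46e-12), 3.42 for intergenic.4770, 3.33 for intergenic.3693, 3.14 for intergenic.3497 and 3.11 for intergenic.2775. Of the 12 largest rises, intergenic.4912 was the one that did not pass (1.44 ± 0.60, adjusted p = 0.181).

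Intergenic.4612, the match of NORAD, had an interaction of 0.46 ± 0.07 (adjusted p = 4.9e-05, edgeR) and intergenic.3442 one of 0.45 ± 0.08 (adjusted p = 0.000379). None of the 3 members that fell in DIS3-AID cells passed it (adjusted p = 0.0528 to 0.197). Lower in the interaction were antisense.832 (-0.76 ± 0.18, adjusted p = 0.00763) and antisense.2989 (-0.54 ± 0.16, adjusted p = 0.0399). Antisense.832 follows RARA-AS1, an antisense gene at the retinoic acid receptor locus (chr17:40340867-40343136, minus strand), to within 0.654 percent. It had 159, 133 and 172 counts in control cells, 215, 186 and 163 with auxin, 116, 134 and 118 in DIS3-AID cells and 112, 87 and 88 with auxin. Within DIS3-AID cells its change of -0.36 missed the threshold (adjusted p = 0.0596), while that of the RARA-AS1 row, -0.38, passed it (0.0464). Antisense.2989 passed neither auxin comparison and lost the interaction call in 9 of 12 fits without 1 library (adjusted p 0.0619 to 0.12), those without control replicate 1 or 3, control auxin replicate 1 or 3, DIS3-AID replicate 1, 2 or 3, or DIS3-AID auxin replicate 1 or 2, and under scaling by library size alone (0.0787) or by TMM factors from Ensembl rows (0.0545). The count of lower members was 1 without control replicate 3, control auxin replicate 3, DIS3-AID replicate 1 or 3, or DIS3-AID auxin replicate 2.

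Before auxin the untreated lines were compared as a description. The log2 difference of untreated DIS3-AID from untreated control cells had a median of 0.04, quartiles of -0.20 and 0.30 and a range of -2.41 to 2.55. It is not tested, because the members were chosen for their level in the control line. Without DIS3-AID replicate 3 the median was -0.00088. A 2-fold difference was reached upward by 18 members (2.08 percent, against 3.09 percent of all features) and downward by 17 (1.96 against 1.21 percent). Chosen after the values were seen, intergenic.1547 was at 0.888 ± 0.336 CPM in control and 5.25 ± 0.643 CPM in DIS3-AID cells, and intergenic.1455 at 3.16 ± 0.366 and 0.805 ± 0.303 CPM (SD, n = 3). With auxin these regions stayed near the level of their own line, at 0.938 and 4.87 CPM for intergenic.1547 and 3.29 and 0.624 CPM for intergenic.1455.

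Other classes of non-coding RNA, held to the same 60 control counts, are set beside the members with no test between classes. The stability of these RNAs was not measured. Divergent transcripts, named -DT and started at the promoter of a neighbouring gene, rose in 102 of 258 cases (median 0.49). Antisense genes, named -AS, rose in 127 of 566 and fell in 2 (median 0.21). LINC genes rose in 52 of 242 and fell in 1 (median 0.17), and assembled loci rose in 141 of 396 and fell in 3 (median 0.28). Rows of protein-coding genes, which in these tables may cover a part of the gene's transcripts, rose in 146 of 9961 cases and fell in 670 (median -0.06). The members' share of rises, 29.8 percent, thus lay between those of the -AS and -DT genes. The classes are not separate from the members. Near-identical counts tie 78 members to Ensembl genes, some of them -AS or LINC genes, and 31 to assembled loci.

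Over all enhancer RNA regions, members or not, more had a count in treated DIS3-AID cells. Between 4133 and 4179 of all 7439 regions had a count in those 3 libraries and 2524 to 2795 in each of the other 9. All 866 members had a count in every library except 2 that were at 0 in DIS3-AID replicate 3. Of the 6573 regions outside the rule, 596 passed the low-count filter and 474 of these were called higher, but they passed it through the group where they are high, so this count supports nothing.

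Among genes listed for the machinery that degrades or terminates such transcripts, 1 in each list was called. Of 29 genes of the exosome and enhancer RNA decay list, 26 were in the table, 1 rose and none fell after auxin in DIS3-AID cells (edgeR, against the 13.0 and 4.23 percent of all features), with a median of -0.03. The gene that rose was ZFC3H1, the zinc finger partner of the exosome helicase in the pathway for polyadenylated nuclear RNA, from 21.9 ± 1.26 to 32.7 ± 2.6 CPM (0.58 ± 0.08, adjusted p = 3e-06). DIS3 was at 0.18 ± 0.14 (adjusted p = 0.452). Of 23 genes of the Integrator and termination list, 21 were in the table and 1 rose: PCF11, a cleavage and termination factor, by 0.26 ± 0.07 (adjusted p = 0.008), from 33.6 ± 3.2 to 40.4 ± 1.8 CPM. The median of that list was -0.06. For both lists the closer background is protein-coding rows with at least 60 control counts, of which 1.47 percent rose and 6.73 percent fell. Neither list was tested against them.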

How the data were processed

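The files deposited by the authors give raw read counts for each feature in a separate table per library. The tools were STAR 2.7.3a, Cufflinks 2.2.1 and featureCounts 2.0.0 on hg38, per the submitters' processing notes. Their parameters are not given in the sources used here. The 12 polyA libraries were used. The 24 total RNA libraries hold no enhancer RNA rows and were not used. After filterByExpr (min.count 10) and TMM scaling, the counts were fitted over all 12 libraries in edgeR 4.0.16 (R 4.3.3, limma 3.58.1) with robust quasi-likelihood tests. P-values were Benjamini-Hochberg adjusted over all 16651 features, with a threshold of 0.05. The biological coefficient of variation was 6.09 percent. Replicates within a group differed by more than counting noise (chi-square per degree of freedom 2.61 to 11.9), so no library duplicated another of its own group. DESeq2 1.42.0, other scalings and filters, a replicate block and leaving out each library were the alternatives. The fitting code was run on simulated counts that had the same spread beyond counting noise for every feature. That run checks the code and not the calls made here. Names and positions came from GENCODE 29, where 50916 of 51223 Ensembl rows were found. The tables hold 1433 assembled loci.

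Members and lists were chosen with earlier results of these data known. Named were the 12 largest rises and up to 6 falls after auxin in DIS3-AID cells, the 10 highest members in the control line, up to 6 interaction estimates in each direction, the 3 on each side of the threshold, DIS3 and the list genes past the threshold. A row counted as near-identical when its summed difference was under 25 percent of counting noise, within 5 rows.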

Additional observations from a re-analysis of the deposited data

Results flagged for a closer look

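Results are listed here because the auxin effect differed between the lines by a test of that difference (the interaction in edgeR, DIS3-AID minus control, adjusted p < 0.05). Its control part comes from the libraries whose summed counts chose the members, so the test is not fully independent of the rule. It was higher for 137 members and lower for 2, where 4.76 percent of all features were higher and 1.09 percent lower. Among the 12 largest rises the values on the log2 scale were 3.93 for antisense.111, 3.54 for intergenic.3240, 3.42 for intergenic.4770, 3.33 for intergenic.3693, 3.14 for intergenic.3497, 3.11 for intergenic.2775, 2.997 for intergenic.922 and antisense.1873, 2.63 for intergenic.2471, 2.62 for intergenic.2661 and 2.61 for antisense.702. Among the 10 highest members they were 0.46 for intergenic.4612, 0.45 for intergenic.3442 and 0.31 for antisense.149. Antisense.3302, at the threshold of 60 control counts, had 3.02, with 11, 10 and 0 counts in DIS3-AID cells and 33, 22 and 39 with auxin. Its control counts were 14, 14 and 12 without and 7, 4 and 9 with auxin. The 2 lower members were antisense.832 at -0.76 and antisense.2989 at -0.54. Groups of 3 libraries are too small for a check of single outlying samples.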

How the results depend on the processing

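The members higher after auxin in DIS3-AID cells numbered 258, and 281 by library size alone, 271 with TMM factors from Ensembl rows, 250 with no filter, 226 in DESeq2, 264 with DIS3-AID libraries alone and 224 to 264 without each library. The lower members numbered 3, and 5 with no filter, 5 with DIS3-AID libraries alone and 2 to 6 without each library. In control cells 1 was higher and 2 lower with no filter, 1 and 1 in DESeq2, and 0 to 1 either way without each library. The interaction was higher for 117 to 132 and lower for 1 to 3 without each library, and lower for 1 by library size alone and for 1 with TMM factors from Ensembl rows. Same-numbered libraries did not pair (correlation of deviations -0.048 to 0.073), and the labels do not say that a number is shared: with the replicate block, 259 members were higher and 4 lower in DIS3-AID cells, 1 and 2 in control cells, and 140 and 3 in the interaction. The median change in DIS3-AID cells was 0.28, and 0.34 by library size alone, 0.31 with TMM factors from Ensembl rows and 0.27 to 0.31 without each library. The median difference between untreated lines was 0.037, and 0.053 by library size alone, 0.050 in DESeq2 and -0.00088 to 0.042 without each library. By library size alone the changes of antisense.3035, antisense.3158 and intergenic.4096 turned to 0.0070, 0.023 and 0.0012. Over all 16651 features the median was -0.021, and 0.036 by library size alone. The difference in summed share was 0.14 percentage points and ran from 0.13 to 0.15 without each DIS3-AID library. Leaving out members with a near-identical row, chosen after seeing the data, gave 226 higher and 3 lower. The cause of each shift was not tested. Depth limits members near 60 control counts, where 1 library adds about 10 counts.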
